A study of Homo sapiens with 6 samples.

Results

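The 10 genes described here encode subunits of protein phosphatase 2A (PP2A), and were measured by RNA-seq in 8505C, an established cell line of anaplastic thyroid cancer (ATC), after silencing of NUF2. They are 2 catalytic genes (PPP2CA and PPP2CB), 2 scaffold genes (PPP2R1A and PPP2R1B), the B55 gene PPP2R2A and the B56 genes PPP2R5A, PPP2R5B, PPP2R5C, PPP2R5D and PPP2R5E. Each is the row of the deposited table that carries its symbol, so that all 10 were found among 32985 genes, and all 10 passed the filter on low values (a mean FPKM of at least 1), which left 11725 genes to test. The set was chosen by the change of PPP2CA in these same libraries. The values of PPP2CA are therefore given as a description with no test.

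A PP2A holoenzyme joins 3 kinds of subunit. The catalytic subunit, which removes phosphate from serine and threonine, sits on a scaffold subunit, and a regulatory B subunit bound to both sets the substrate and the place in the cell. PP2A with a B56 subunit is known to act at centromeres and kinetochores, where it protects cohesin and counters Aurora B. PP2A with a B55 subunit is known for removing, at mitotic exit, phosphates that Cdk1 placed on its substrates. NUF2 is a subunit of the NDC80 complex, which joins kinetochores to microtubules.

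The study asked which genes respond to loss of NUF2. There were 3 libraries of wild-type 8505C cells with control siRNA (siCtrl) and 3 of 8505C cells with NUF2 knockdown by siRNA (siNUF2), all labelled 24 h. A single siRNA sequence against NUF2 is given in the study's methods, and no second line is part of this series. Neither the labels nor the methods say that the 3 libraries of a group came from separate cultures, so p-values measure the spread between these libraries. In RNA from whole cultures, fewer cells that express a gene and less RNA per cell cannot be told apart.

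The total count was between 61257859 and 69755291 per library. Mitochondrial genes held between 5.46% and 6.70% of the counts in siCtrl and between 6.54% and 7.06% in siNUF2, and the part of this difference in the results was not tested. NUF2 itself had an FPKM (a level of fragments scaled by transcript length and by library size) of 14.8, 14.5 and 12.2 in siCtrl and 1.53, 2.05 and 1.56 in siNUF2. Of the thyroid markers, NKX2-1 was at a mean of 18.5 FPKM in siCtrl, whereas PAX8 was at 0.575 and the functional genes TG and SLC5A5 were each under 0.01. The keratins KRT7, KRT8 and KRT18 were at 466, 89.4 and 159 FPKM in siCtrl, and the epithelial adhesion genes were low, with CDH1 listed at 0 and EPCAM at 0.105.

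After silencing of NUF2, PPP2CB, PPP2R5A and PPP2R5E fell, so that 3 of the 9 genes other than PPP2CA passed the test, all with a lower level in siNUF2. None of the 9 was called higher by edgeR, DESeq2 or limma, and at an unadjusted p under 0.05 in edgeR 4 were lower and 0 higher. At that unadjusted threshold, 1121 of the 11725 genes tested were lower and 1008 higher. Of all 11725 genes tested, 2.46% were called lower and 1.53% higher. These calls are a Benjamini-Hochberg adjusted p under 0.05 over all genes in edgeR's quasi-likelihood test. The median log2 fold change (siNUF2 minus siCtrl, so that negative values are lower in siNUF2) was -0.40 over the 10 subunit genes and -0.25 without PPP2CA, against 0.01 over all genes tested. In 4 of the 9 genes other than PPP2CA, every siNUF2 library had a lower FPKM than every siCtrl library. Of all genes tested, 13.4% were separated in this direction. PPP2CA, on which the set was selected, was separated as well and is left out of this count. The replicate numbers pair the libraries, and when edgeR was given the number as a block, 4 of the 9 were called lower, against 7.91% of all genes, since PPP2R5B then passed. The count of 3 was 1 without siCtrl library 1 or 3, without siNUF2 library 1 or 2 or with no filter on low values, and 2 without siCtrl library 2 or siNUF2 library 3.

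**Figure D1:**
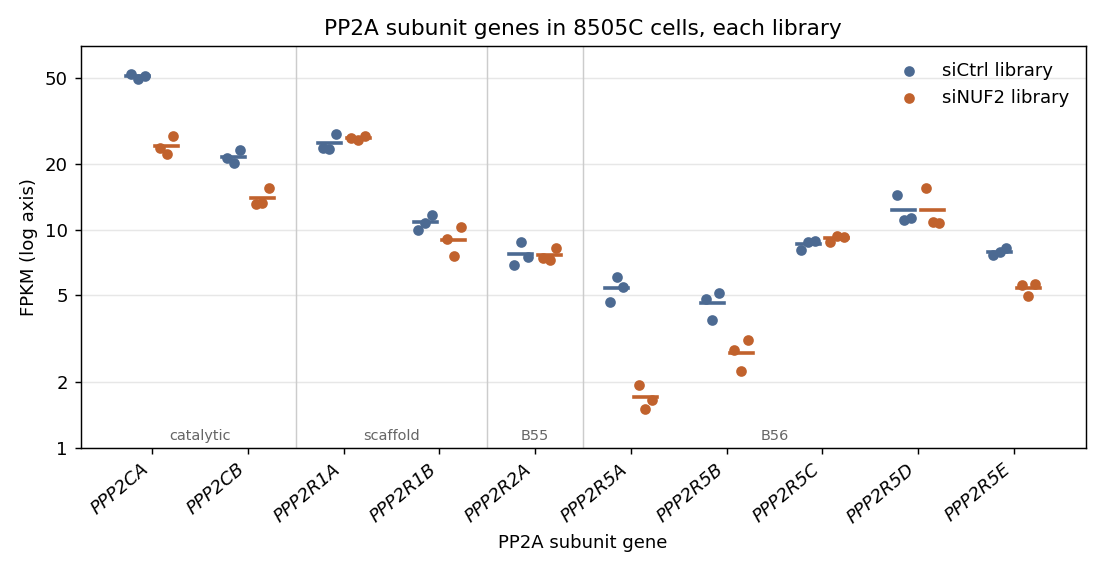
FPKM of the 10 PP2A subunit genes (log axis) in each of the 3 siCtrl libraries (blue) and 3 siNUF2 libraries (orange), with a bar at the mean of each group. The groups are apart for PPP2CA, PPP2CB, PPP2R5A, PPP2R5B and PPP2R5E and overlap for the other 5 genes.

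PPP2CA (ENSG00000113575), which encodes the alpha form of the catalytic subunit, lies on the minus strand at chr5:134194332-134226073 (GRCh38). Its FPKM was 52.2, 49.4 and 50.8 in siCtrl and 23.9, 22.4 and 26.9 in siNUF2. The lowest siCtrl library was thus far above the highest siNUF2 library. The means were 50.8 ± 1.38 (SD, n = 3) and 24.4 ± 2.31 (SD, n = 3), which is 48.0% of control, with between 10074 and 23504 counts per library. The log2 fold change was -1.04 with a standard error of 0.10. This is the value on which the genes were selected.

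PPP2CB (ENSG00000104695) encodes the beta form of the catalytic subunit and lies on chromosome 8 from 30774457 to 30814314. Its FPKM was 21.4, 20.2 and 23.3 in siCtrl and 13.1, 13.3 and 15.5 in siNUF2, with no overlap of the groups. The mean fell from 21.6 ± 1.60 to 14.0 ± 1.31 (SD, n = 3 each), to 64.6% of control. Its log2 fold change was -0.61 with a standard error of 0.11 and an adjusted p of 0.0225 (edgeR, Benjamini-Hochberg). This call was lost without siCtrl library 1 or 3 or without siNUF2 library 1 or 2, with adjusted p between 0.0737 and 0.0996, while the log2 fold change stayed between -0.69 and -0.55 whichever library was left out. The coding sequences of PPP2CA and PPP2CB are 927 bases each in GENCODE release 44 and identical at 83.2% of positions, the longest identical run being 26 bases, and the encoded proteins of 309 residues differ at 8. How reads that match both genes were counted is not given in the sources used here.

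The summed FPKM of the catalytic genes was 73.5, 69.6 and 74.2 in siCtrl and 36.9, 35.7 and 42.4 in siNUF2, which left 53.0% of the control mean. PPP2CA held 70.2% ± 1.40 of this sum in siCtrl and 63.6% ± 0.966 in siNUF2 (SD, n = 3 each). These sums contain the gene used to select the set and are given with no test.

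Neither scaffold gene passed the test. PPP2R1A (ENSG00000105568, chr19:52190048-52226401), which encodes the alpha scaffold subunit, had an FPKM of 23.9, 23.5 and 27.5 in siCtrl and 26.4, 25.9 and 27.0 in siNUF2. The ranges overlapped, and the log2 fold change was 0.10 with a 95% interval from -0.12 to 0.32 and an adjusted p of 0.660 (edgeR, Benjamini-Hochberg). PPP2R1B (ENSG00000137713, chr11:111726908-111766386), which encodes the beta scaffold subunit, had an FPKM of 9.98, 10.8 and 11.7 in siCtrl and 9.08, 7.60 and 10.3 in siNUF2. Here siNUF2 library 3 lay within the siCtrl range, and the log2 fold change was -0.25 (95% interval -0.55 to 0.04, adjusted p = 0.359, edgeR). PPP2R1B overlaps SIK2 on the opposite strand, which was at a mean of 3.91 FPKM, and the strand setting of the counting is not given in the sources used here.

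The summed scaffold FPKM was 33.9, 34.4 and 39.2 in siCtrl and 35.5, 33.5 and 37.3 in siNUF2, or 98.8% of control. The ratio of catalytic to scaffold FPKM was therefore 2.17, 2.02 and 1.89 in siCtrl and 1.04, 1.07 and 1.14 in siNUF2. Of the difference of -34.1 in catalytic FPKM (siNUF2 minus siCtrl), -26.4 was that of PPP2CA, on which the set was selected, and -7.66 that of PPP2CB, so this ratio is a description with no test. The share of scaffold FPKM that came from PPP2R1A was 69.7% ± 1.10 in siCtrl and 74.7% ± 2.46 in siNUF2 (SD, n = 3 each). Its 3 siNUF2 libraries were all above its 3 siCtrl libraries, with p = 0.1 in an exact two-sided permutation test, the smallest p that 3 libraries against 3 allow, and p = 0.12 after adjustment over the 6 shares tested.

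**Figure D2:**
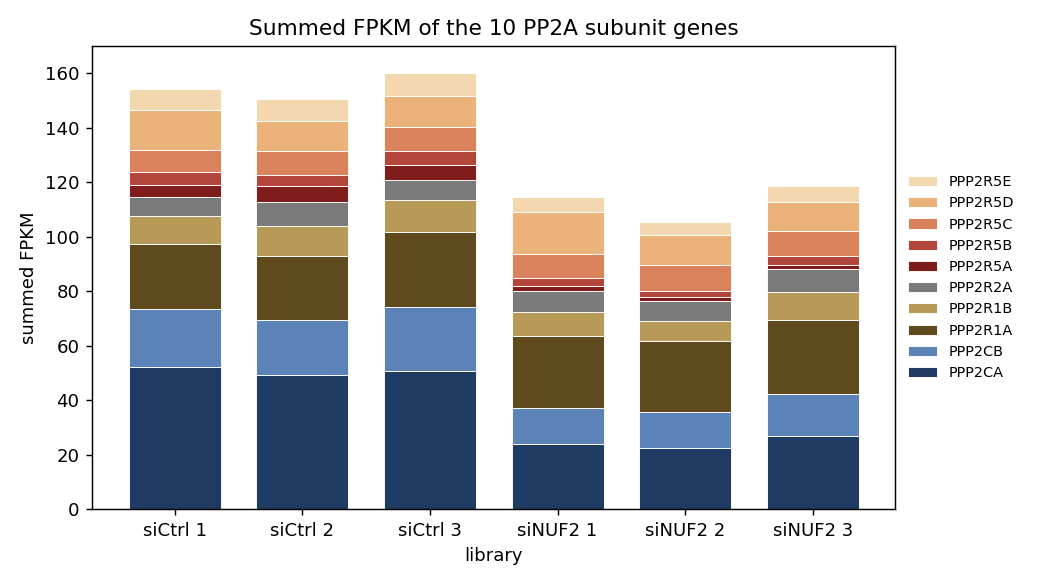
FPKM of the 10 PP2A subunit genes stacked for each library (y axis, summed FPKM). The stacks reach between 150 and 160 in siCtrl and between 105 and 118 in siNUF2, and 62.8% of the difference between the group means is that of PPP2CA, at the base of each bar, on which the set was selected.

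PPP2R2A (ENSG00000221914), the B55 alpha subunit, lies on chromosome 8 from 26291508 to 26372680. Its FPKM was 6.92, 8.78 and 7.49 in siCtrl and 7.46, 7.28 and 8.29 in siNUF2, so that the groups lay within each other. Its log2 fold change was 0.01, with a 95% interval from -0.25 to 0.28 and an adjusted p of 0.976 (edgeR, Benjamini-Hochberg).

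The B56 genes did not move together: PPP2R5A and PPP2R5E fell, PPP2R5B passed in edgeR only when the libraries were paired, and PPP2R5C and PPP2R5D did not pass. PPP2R5A (ENSG00000066027, chr1:212285410-212361853) encodes B56 alpha. Its FPKM was 4.67, 6.05 and 5.48 in siCtrl and 1.94, 1.50 and 1.66 in siNUF2. The highest siNUF2 value was well under the lowest siCtrl value. The mean fell from 5.40 ± 0.695 to 1.70 ± 0.221 (SD, n = 3 each), to 31.5% of control, on between 472 and 1929 counts per library. Its log2 fold change of -1.65 ± 0.17 (SE), with an adjusted p of 0.00377 (edgeR, Benjamini-Hochberg), was the lowest of the 10 genes and the 22nd lowest of the 11725 tested. It stayed under 0.05 whichever library was left out, with a highest adjusted p of 0.0229 (edgeR, Benjamini-Hochberg).

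PPP2R5E (ENSG00000154001, chr14:63371364-63543377, minus strand), which encodes B56 epsilon, had an FPKM of 7.69, 7.90 and 8.27 in siCtrl and 5.57, 4.95 and 5.64 in siNUF2. The groups were apart and narrow, and the mean fell to 67.8% of control. The log2 fold change was -0.54 ± 0.09 (SE), with a Benjamini-Hochberg adjusted p of 0.0203 in edgeR. This call was lost when any of the 6 libraries was left out, with adjusted p between 0.0537 and 0.0828 and a log2 fold change between -0.58 and -0.49.

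PPP2R5B (ENSG00000068971, chr11:64917553-64928158), which encodes B56 beta, had an FPKM of 4.84, 3.86 and 5.13 in siCtrl and 2.82, 2.24 and 3.12 in siNUF2. The mean was 4.61 ± 0.664 in siCtrl and 2.73 ± 0.450 in siNUF2 (SD, n = 3 each), or 59.1% of control, with no overlap of the libraries. The log2 fold change was -0.74 (standard error 0.19) with an adjusted p of 0.0815, and of 0.0108 in the fit blocked by replicate number (edgeR, Benjamini-Hochberg). Number 2 was the lowest and number 3 the highest library in both groups, and the difference within a number was -0.78, -0.79 and -0.72 on the log2 scale of FPKM. DESeq2 without a block gave an adjusted p of 0.00731.

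PPP2R5C (ENSG00000078304, chr14:101761798-101927989), which encodes B56 gamma, had an FPKM of 8.05, 8.82 and 8.88 in siCtrl and 8.80, 9.36 and 9.24 in siNUF2. The log2 fold change was 0.11 with a 95% interval from -0.10 to 0.32 (adjusted p = 0.599, edgeR). PPP2R5D (ENSG00000112640, chr6:42984553-43012342), which encodes B56 delta, had an FPKM of 14.4, 11.1 and 11.4 in siCtrl and 15.5, 10.9 and 10.8 in siNUF2. Library 1 was the highest in both groups, and the log2 fold change was 0.03 with a 95% interval from -0.35 to 0.41 (adjusted p = 0.946, edgeR). PPP2R5D overlaps MEA1 on the opposite strand, at a mean of 29.6 FPKM, so reads from the overlap may have been counted for either gene.

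The make-up of the B56 transcripts was compared as shares. The share of summed B56 FPKM from PPP2R5A was 11.8%, 16.0% and 14.0% in siCtrl and 5.60%, 5.19% and 5.46% in siNUF2. PPP2R5C held 22.1% ± 1.60 in siCtrl and 29.4% ± 3.56 in siNUF2, and PPP2R5D held 31.6% ± 4.02 and 39.3% ± 4.83 (SD, n = 3 each), though its libraries overlapped. PPP2R5B went from 11.9% to 8.71% and PPP2R5E from 20.5% to 17.2%. For PPP2R5A, PPP2R5B, PPP2R5C and PPP2R5E the exact two-sided permutation p was 0.1, the smallest this design allows, and 0.12 after adjustment over the 6 shares, and for PPP2R5D both were 0.2. No share passed the threshold, which 3 libraries against 3 cannot reach. The shares of 1 family sum to 100%, so a higher share of PPP2R5C or PPP2R5D does not mean a higher level. With shares of CPM (counts scaled by library size only), which weigh long transcripts more, the differences kept their directions but changed in size. They were smaller for PPP2R5A (from -8.52 to -4.87 percentage points), PPP2R5B (from -3.15 to -1.78) and PPP2R5D (from 7.69 to 2.56), and larger for PPP2R5C (from 7.23 to 9.88) and PPP2R5E (from -3.25 to -5.80). The difference for PPP2R5D was 4.97 points without siNUF2 library 1.

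**Figure D3:**
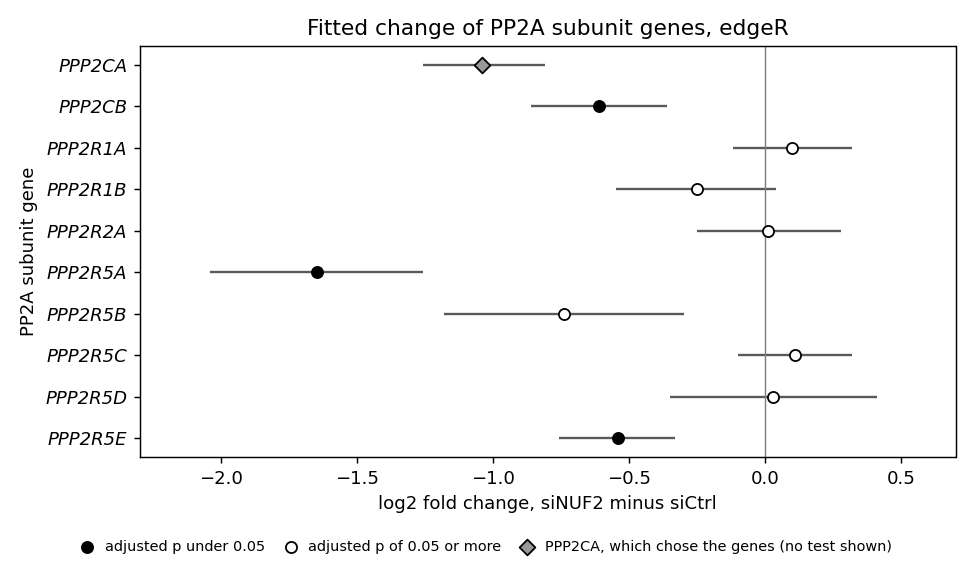
Log2 fold change (siNUF2 minus siCtrl) of each PP2A subunit gene from edgeR, with its 95% interval as a line. Filled circles, at -0.61, -1.65 and -0.54, are the genes with an adjusted p under 0.05, and open circles those at or over it. The diamond is PPP2CA at -1.04, on which the set was selected. Its line belongs to a selected value and is not to be read as a test.

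The order of the levels was not the same in both groups. In siCtrl, the mean FPKM ran from PPP2CA (50.8) through PPP2R1A (25.0), PPP2CB (21.6), PPP2R5D (12.3), PPP2R1B (10.8), PPP2R5C (8.58), PPP2R5E (7.95), PPP2R2A (7.73) and PPP2R5A (5.40) to PPP2R5B (4.61). The library ranges overlapped between PPP2R5D and PPP2R1B, between PPP2R5C and PPP2R5E, between PPP2R5E and PPP2R2A and between PPP2R5A and PPP2R5B, so these neighbours were not told apart. PPP2CA lay above 93.9% of the tested genes by mean FPKM in siCtrl. In siNUF2, PPP2R1A came first (26.4) and overlapped with PPP2CA (24.4). PPP2R5A was last at 1.70 FPKM, above 13.6% of the tested genes, from 46.5% in siCtrl.

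The siRNA carries a seed, the bases at positions 2 to 8 of its antisense strand, that can pair with 3′ UTRs other than its target. The word that pairs with this seed is TATGGAA in the mRNA, and its 6-base core is ATGGAA. Both were searched on the mRNA strand of the longest 3′ UTR of each gene in GENCODE release 44, and every 7-base word also counts as a 6-base word. The 7-base word was held by the 3′ UTRs of PPP2R5C and PPP2R5E, 1 copy each, and by none of the other 8 subunit genes, against 16.1% of the 10173 tested genes with a 3′ UTR of at least 50 bases. Longer 3′ UTRs hold it more often. Of those between 2913 and 32870 bases, such as that of PPP2R5E with 4645, 35.8% held it, and of those between 1504 and 2910, such as that of PPP2R5C with 2717, 17.3%. The 6-base word was held by 46.2% of the tested genes and by 7 of the 10 subunit genes. No share by 3′ UTR length was computed for this word. Its holders were PPP2CA (1 copy), PPP2R5A (1 copy), PPP2R5C (3 copies), PPP2R5E (3 copies), PPP2R1A (2 copies), PPP2R1B (3 copies) and PPP2R5D (1 copy). PPP2R1A, PPP2R1B and PPP2R5D did not pass the test, with log2 fold changes of 0.10, -0.25 and 0.03. Both words of PPP2R1A lie past the end of that gene in the deposited coordinates. The 7-base words of PPP2R5E and PPP2R5C and the only 6-base words of PPP2CA and PPP2R5A are shown in 30 bases of 3′ UTR each, with the word in capitals, since they set genes with a lower level beside PPP2R5C, which did not pass the test.
PPP2R5E: ctcaatcacacTATGGAAagaaacaaaaaa
PPP2R5C: attccacatttTATGGAAagttagagcaaa
PPP2CA: tatatcgacctaATGGAAatgggaagagca
PPP2R5A: tggcaactgtaaATGGAAaaatatatggac
These windows are at chr14:63372705-63372734 (minus strand), chr14:101926144-101926173 (plus), chr5:134197706-134197735 (minus) and chr1:212360886-212360915 (plus) of GRCh38. PPP2R5E, with 1 copy of the 7-base word and 3 of the 6-base word, had a log2 fold change of -0.54. PPP2R5C, with the same numbers of copies, had 0.11. The annotated 3′ UTRs of PPP2CB (619 bases) and PPP2R5B (631 bases) held neither word, and their log2 fold changes were -0.61 and -0.74. TTCACGG, the word that pairs with the seed of the other siRNA strand, was in no subunit gene's 3′ UTR and in 2.72% of those tested. Whether any of these sites was bound by the siRNA was not tested.

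Beyond the 10 genes, 45 genes of PP2A regulators and partners were looked at, of which 43 were tested. ENSA rose and PPP4R2 fell, and the other 41 did not pass (edgeR). Of all genes, 1.53% were called higher and 2.46% lower. The median log2 fold change over the 43 genes was -0.03, against 0.01 over all genes tested.

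Over all 11725 genes tested, 2129 had an unadjusted p under 0.05 in edgeR. None of the 7 tested genes for other B subunits passed in edgeR, DESeq2 or limma, and 0 had an unadjusted p under 0.05 in edgeR. Their log2 fold changes were 0.21 for PPP2R2D, a second B55 gene, -0.01, -0.04 and -0.14 for PPP2R3A, PPP2R3B and PPP2R3C, and 0.11, -0.17 and -0.17 for the striatins STRN, STRN3 and STRN4. PPP2R2B and PPP2R2C were under the filter, with at most 9 counts in a library. The 5 genes of PP2A assembly and methylation did not pass in any of these tools either, with 0 at an unadjusted p under 0.05. The log2 fold change was 0.16 for LCMT1, which methylates the tail of the catalytic subunit, -0.07 for PPME1, which removes the methyl group, 0.12 for the activator PTPA, and 0.08 and -0.02 for IGBP1 and TIPRL, which bind the catalytic subunit.

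ENSA, which inhibits PP2A with B55 once the kinase MASTL has phosphorylated it, was the 1 gene that rose among the 8 inhibitors and their kinase. Its FPKM was 14.6, 11.6 and 13.5 in siCtrl and 23.8, 21.9 and 21.9 in siNUF2, with the groups far apart. The mean rose to 170% of control, and edgeR gave a log2 fold change of 0.78 ± 0.11 (SE) with a Benjamini-Hochberg adjusted p of 0.00947. The adjusted p was at most 0.0496 with any library left out. Its relative ARPP19, which acts on the same phosphatase, had a log2 fold change of -0.07 and MASTL 0.12, and neither passed.

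SET, an inhibitor of PP2A with a high level, was at 177, 172 and 168 FPKM in siCtrl and 145, 143 and 150 in siNUF2, with a log2 fold change of -0.22. Its adjusted p was 0.195, and 0.0460 with the replicate block (edgeR). BOD1, which inhibits PP2A with B56 at kinetochores, had a log2 fold change of 0.26 with an adjusted p of 0.160, and of 0.0469 with the block (edgeR). ANP32A, CIP2A and PABIR1 were at -0.08, -0.04 and -0.15, and did not pass in either fit.

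The receptors that hold PP2A with B56 at centromeres and kinetochores did not pass the test without a block in edgeR, DESeq2 or limma, and 1 of 3 had an unadjusted p under 0.05 in edgeR. Of all 11725 genes tested, 2129 had such an unadjusted p. BUB1B, which encodes BubR1 and binds B56, was at 23.4, 22.6 and 21.2 FPKM in siCtrl and 29.8, 25.0 and 26.8 in siNUF2. Its log2 fold change was 0.30, with an adjusted p of 0.154, and of 0.0357 with the block (edgeR, Benjamini-Hochberg). The shugoshin genes SGO1 and SGO2 had log2 fold changes of 0.27 and -0.03.

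Among the 11 genes of STRIPAK, a complex of PP2A, striatin and kinases, none passed in edgeR, DESeq2 or limma. Here 1 gene had an unadjusted p under 0.05 in edgeR, as did 2129 of all 11725 genes tested. The log2 fold changes of these 11 genes ran from -0.20 for MOB4 to 0.26 for STK25. A separate entry, HSPE1-MOB4, had a log2 fold change of -10.51, the lowest of all genes tested. Its FPKM in each library and its adjusted p are not given here, so nothing is read from this value. Whether HSPE1-MOB4 shares reads with MOB4 was not tested. Among 9 genes of the related phosphatases PP4 and PP6, PPP4R2, a regulatory subunit of PP4, fell. Its FPKM was 14.0, 16.3 and 14.6 in siCtrl and 7.98, 7.12 and 7.77 in siNUF2, to 50.8% of control, and edgeR gave a log2 fold change of -0.96 ± 0.10 (SE) with a Benjamini-Hochberg adjusted p of 0.00377. The highest value of that list was 0.08, for PPP6R2. Chosen after their values were seen, PPP6C, the catalytic subunit of PP6, and PPP4R3A, another regulatory subunit of PP4, had log2 fold changes of -0.44 and -0.40, with adjusted p of 0.0606 and 0.112, and of 0.0119 and 0.0477 with the block (edgeR, Benjamini-Hochberg). For PPP6C and PPP4R3A, DESeq2 without a block gave adjusted p of 0.00684 and 0.0425. With the block, 4 of the 43 genes were called lower, against 7.91% of all genes, and 3 higher, against 6.64%.

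**Figure D4:**
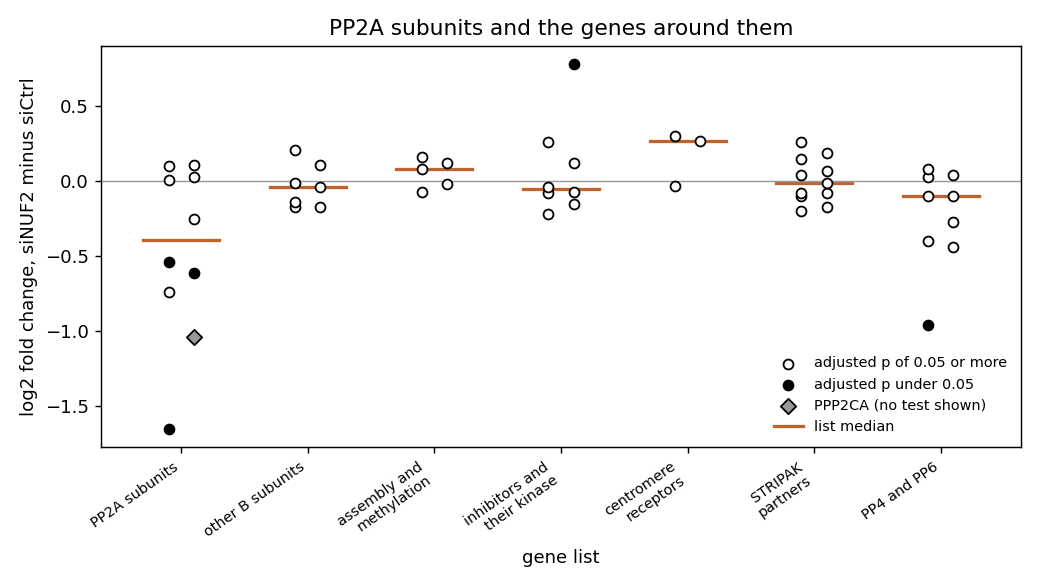
Log2 fold change (siNUF2 minus siCtrl) of each tested gene of the PP2A subunits and of the 6 lists of regulators and partners, with the median of each list as an orange bar. Filled points passed an adjusted p under 0.05, with ENSA at 0.78 and PPP4R2 at -0.96 the 2 outside the subunits, and the medians are -0.40 for the subunits (-0.25 without PPP2CA, on which the set was selected) and between -0.10 and 0.27 for the lists.

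The 5 genes whose pattern over the 6 libraries was most like that of PPP2CA, by Pearson's r on log2 CPM, were PIGK, LEPROTL1, CCPG1, DYNC1LI2 and NPM1P27, with r between 0.9967 and 0.9985. The 6 points fall into the 2 groups, so that r mainly records the difference between them, and no p is given. DYNC1LI2, a light intermediate chain of cytoplasmic dynein, had a mean of 16.0 FPKM in siCtrl and 6.86 in siNUF2, and PIGK, of the enzyme that attaches GPI anchors, 9.63 and 4.28. LEPROTL1 went from 9.42 to 4.60 FPKM. NPM1P27, a pseudogene of NPM1 that may share reads with other copies, went from 53.1 to 27.2. CCPG1 had a small difference, with a log2 fold change of -0.26 that did not pass (adjusted p = 0.157, and 0.0470 with the block, edgeR).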

How the data were processed

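Poly(A) RNA of 8505C cells was sequenced in paired ends. The submitters' processing notes and the study's methods name fastp, HISAT2, StringTie and GRCh38, without versions. The authors deposited whole-number counts per gene, with no normalization, and FPKM, scaled by transcript length and library size. The tool behind the counts, the annotation release and the strand setting are not given in the sources used here. All 12 columns of values were used and 0 left out. Columns of the authors' own comparisons were not used.

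Genes that reached a mean FPKM of 1 were tested on counts with edgeR 4.0.16 (quasi-likelihood, TMM) in R 4.3.3, with Benjamini-Hochberg adjustment over 11725 genes, a threshold of 0.05 and intervals of 95%. The standard error is the log2 fold change over the square root of F. Shares were tested with exact two-sided permutations (scipy 1.17.1) of FPKM shares. The code was tested on simulated data.

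A chi-square test of the counts of each pair of replicate libraries gave between 54.7 and 77.7 per degree of freedom, and none was taken for a copy. Deviations from the group means correlated at 0.344 to 0.446 between libraries of the same replicate number and at -0.263 to -0.141 between other numbers, so the numbers pair the libraries, although neither the labels nor the methods say what a number shares. The alternatives were the replicate block, size factors of DESeq2 in edgeR, DESeq2 1.42.0, no filter, a mean FPKM of at least 5, limma 3.58.1 on log2(FPKM + 1) and log2(FPKM + 0.1), and leaving out each library.

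The members, the gene lists and the tests were chosen with earlier results of these data known. The rule for named genes took all members, NUF2, list genes with an adjusted p under 0.05, every gene of the 4 lists nearest PP2A, the highest and lowest of the others, and the 5 genes most like PPP2CA. Of the thyroid marker list, TSHR was not analysed here, FOXE1 had at most 8 counts in a library, and 1 other marker is not reported here. The 3′ UTRs and coding sequences came from GENCODE release 44 (GRCh38).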

Additional observations from a re-analysis of the deposited data

How the results depend on the processing

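The number of genes called, 468, was 1705 with the replicate block, 972 with DESeq2, 188 with no filter and between 124 and 251 with a library left out. Of the 9 subunit genes other than PPP2CA, 3 were called, 1 with no filter, when PPP2CB and PPP2R5E had adjusted p of 0.0679 and 0.0699 over 32985 genes, and between 1 and 2 with a library left out. Fits without a library have fewer samples. PPP2R5A was called under each alternative that tested it, and a mean FPKM of at least 5 left PPP2R5A and PPP2R5B untested. With limma on log2(FPKM + 1) the log2 fold change of PPP2R5A was -1.24. Of regulators and partners, 2 were called, 7 with the replicate block and 4 with DESeq2, and PPP6C also passed with a mean FPKM of at least 5. The log2 fold change of PPP2CA lay between -1.11 and -0.98. Among the genes named in the report, the block changed no other call than those given. Within pairs each of the 6 shares kept its difference, which was -8.52 percentage points for PPP2R5A. For each share p was 0.25 by exact sign flips, the smallest 3 pairs allow. Directions turned only for genes that did not pass. PPP2R2A was at -0.01 with a mean FPKM of at least 5 and with limma at either pseudocount. With a library left out the log2 fold change lay between -0.06 and 0.11 for PPP2R2A, -0.15 and 0.16 for PPP2R5D, -0.15 and 0.11 for PPP2R3A, -0.31 and 0.17 for PPP2R3B, -0.18 and 0.07 for PPME1, -0.04 and 0.14 for IGBP1, -0.06 and 0.03 for TIPRL, -0.07 and 0.01 for CIP2A, -0.09 and 0.03 for SGO2, and -0.04 and 0.15 for PPP6R2. The cause of these changes was not tested.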
